A study of Mus musculus with 2 samples.

Results

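The 9 interferon-stimulated genes *Ifit1*, *Ifit2*, *Ifit3*, *Isg15*, *Irf7*, *Oasl2*, *Usp18*, *Ifi44* and *Rsad2* were examined in the left ventricle of heart-specific *Bmal1* knockout mice. They were taken as every noncontrol probe whose transcript accession belonged to one of these symbols, with no threshold on signal or ratio. All 9 genes were found, with 10 probes, among 13862 named genes with a probe well above background on at least 1 array. The *H-Bmal1*-/- mice were 12-week-old males with a floxed *Bmal1* gene and a Cre transgene driven by the αMHC promoter, which is active in cardiomyocytes, so that the other cell types of the ventricle were not targeted. The control mice were 12-week-old male littermates with the floxed *Bmal1* gene and without Cre, labeled wildtype by the submitters. Both genotypes were collected at ZT 2, where ZT 0 is the time of lights on, and RNA from 6 animals of a genotype was pooled and hybridized to 1 array. There was therefore 1 array per genotype, no measure of the spread between animals, no test, and no group with Cre alone.

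Type I interferons bind a cell surface receptor whose kinases phosphorylate STAT proteins. With IRF9 these form a complex that binds the interferon-stimulated response element (ISRE) in the promoters of interferon-stimulated genes, many of whose products block viral replication. In the heart this response is best known from viral myocarditis, and it can occur in cardiomyocytes as well as in immune, endothelial and stromal cells.

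The promoters are shown because the ISRE is the sequence through which interferon acts on such genes. Sequences were taken from RefSeq on build GRCm38.p6, from 250 bases before to 50 bases after each annotated start, and 8 of the 9 genes were matched, all but *Usp18*. The ISRE core, searched on both strands as GAAA, any 2 bases and GAAA, was found in *Ifit1*, *Ifit3*, *Isg15* and *Rsad2*, or 4 of 8, and in 3.99% of the 27025 genes with such a window. The longer form, which is the core followed by CT, was found in *Ifit1* and *Ifit3*, and in 0.303% of all genes. Each stretch is read 5′ to 3′ on the strand of its gene with 15 bases on either side, and capitals mark the letters that match the core on one strand or the other.
*Ifit1*, chr19:34640770-34640828, plus strand, 2 matches: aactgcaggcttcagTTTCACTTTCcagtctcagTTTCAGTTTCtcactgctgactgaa
*Ifit3*, chr19:34583358-34583431, plus strand, 2 matches: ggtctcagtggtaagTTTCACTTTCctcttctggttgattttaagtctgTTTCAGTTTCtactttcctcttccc
*Isg15*, chr4:156200860-156200911, minus strand, 3 overlapping matches: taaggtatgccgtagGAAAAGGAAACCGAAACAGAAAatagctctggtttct
*Rsad2*, chr12:26456548-26456587, minus strand, 1 match: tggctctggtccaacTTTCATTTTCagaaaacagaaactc

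Of the other elements searched, the GAS element, known from genes that answer to type II interferon and searched as TTCNNNGAA on both strands, was found in 1 of the 8 genes, *Ifit2*, and in 9.55% of all genes. The E-box CACGTG, bound by the BMAL1 and CLOCK pair, was found in 0 of the 8 genes and in 8.09% of all genes. These matches describe the letters of the windows and say nothing of binding in the heart.

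The arrays were similar in quality. Of 59305 noncontrol spots on each array, 50.03% were well above background on the *H-Bmal1*-/- array and 49.4% on the control array, with no saturated spot on either. The processed signal is the background-subtracted brightness of a spot, and its 75th percentile was 190 on the *H-Bmal1*-/- array and 171 on the control array. Ratios are log2 processed signal after subtraction of that percentile, *H-Bmal1*-/- minus control, and without this scaling every ratio was higher by 0.15. For *Arntl*, as *Bmal1* is named on the array, 1 probe gave a log2 ratio of -0.80, and the sources used here do not say where that probe lies with respect to the floxed exon.

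The interferon-stimulated genes were at nearly the same level in both pools at ZT 2, and other times of day were not measured on arrays. The paper names as a limit that changes seen at ZT 2 alone may reflect shifts in timing, and that other changes may be missed. Their log2 ratios had a median of 0.05, with a lowest of -0.19 for *Ifit1* and a highest of 0.32 for *Ifit2*. None of the 9 was at least 1.5-fold higher in the *H-Bmal1*-/- pool and none at least 1.5-fold lower, against 5.13% higher and 4.51% lower among the 13063 genes well above background on both arrays. At a lower limit, a log2 ratio of 0.322 in size, the counts were again 0 higher and 0 lower, against 12.8% higher and 13.5% lower among those genes, with *Ifit2* just inside it at 0.317. In 8 of the 9 the ratio was above 0 (7 or 8 of 9 under other ways of processing), against 47.8% of those genes, but most of these ratios were small.

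**Figure D1:**
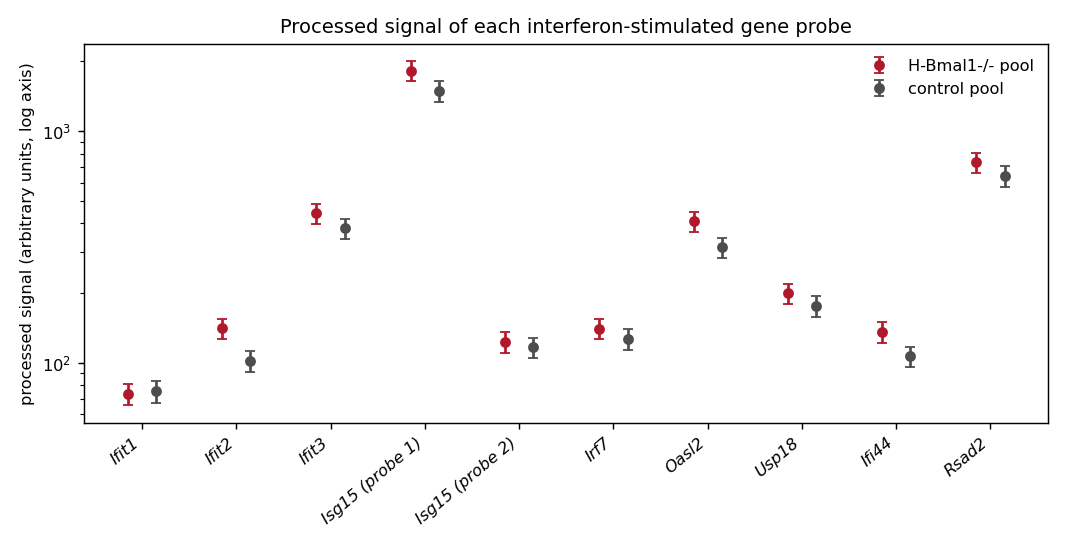
Processed signal of the 10 probes of the 9 interferon-stimulated genes on a log axis (arbitrary units, not scaled between arrays), with the *H-Bmal1*-/- pool and the control pool side by side and bars for the error estimate of the scanner software. Signals of the *H-Bmal1*-/- pool lie slightly above those of the control pool for 9 of 10 probes, and *Ifit1* is the exception.

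Every probe of the 9 genes was a single spot that was well above background on both arrays, was not saturated and carried no outlier mark. Median signals were 3.86 to 66.3 times the local background. The errors available were the error estimate of the scanner software for each spot, which gave a scan error of 0.20 to 0.21 for each log2 ratio, and the spread of repeated spots. Over 152 probes printed in at least 8 spots at similar signal, the SD of the log2 ratio between spots of a probe had a median of 0.076. Its 95th percentile was 0.154 and its highest value 0.51. Spot SD in the following is the median, since a probe with a single spot gives no SD of its own. Neither covers the differences between animals.

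The IFIT proteins bind foreign RNA and block its translation, and their genes are neighbors on chromosome 19. The signal of *Ifit2* was 141 ± 14.3 in the *H-Bmal1*-/- pool and 102 ± 10.47 in the control pool (± error estimate of the scanner software here and in the following), a log2 ratio of 0.32. *Ifit2* was thus the gene with the highest ratio of the 9, beyond 1 scan error and within 2, and 15.4% of the 13862 genes had a higher ratio. For *Ifit3*, the signal was 442 ± 44.3 in the *H-Bmal1*-/- pool and 381 ± 38.2 in the control pool, and the log2 ratio was 0.06. *Ifit1* gave 73.3 ± 7.67 in the *H-Bmal1*-/- pool and 75.2 ± 7.86 in the control pool, and its log2 ratio of -0.19 was the only one of the 9 below 0. The ratios of *Ifit1* and *Ifit3* were within 1 scan error of 0, so that the scan error resolved no direction for either. *Ifit1* was more than 2 spot SDs from 0, and above 0 in 0 of 11 other ways of processing (-0.20 to -0.04). The gap between *Ifit2* and *Ifit1* was 0.51, with a combined scan error of 0.30. The signal of *Ifit3* is uncertain because *Ifit3b*, a near-identical copy, can bind similar probes, and *Ifit3b* had a log2 ratio of -0.14 with its 2 probes at -0.42 and 0.14.

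ISG15 is a ubiquitin-like protein that is attached to other proteins after interferon, and USP18 removes it and also damps signaling at the interferon receptor. The first *Isg15* probe had a signal of 1820 ± 182 in the *H-Bmal1*-/- pool and 1490 ± 149 in the control pool, a log2 ratio of 0.14. The second *Isg15* probe had 123 ± 12.5 in the *H-Bmal1*-/- pool and 117 ± 11.9 in the control pool, a log2 ratio of -0.08. The probes therefore disagreed in sign, by 0.21, and their mean was 0.03. *Usp18* had a signal of 200 ± 20.2 in the *H-Bmal1*-/- pool and 176 ± 17.8 in the control pool, and the log2 ratio was 0.03. Neither gene differed by more than the scan error.

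IRF7 is the transcription factor that amplifies interferon production once a first wave of interferon has induced it. The *Irf7* signal was 141 ± 14.2 in the *H-Bmal1*-/- pool and 127 ± 12.9 in the control pool. After scaling both pools were level, with a log2 ratio of 0.00.

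The remaining 3 genes are antiviral effectors or are used as markers of the response. OASL2 belongs to the family of oligoadenylate synthetases, which sense double-stranded RNA, and *Oasl2* had a signal of 409 ± 40.9 in the *H-Bmal1*-/- pool and 316 ± 31.6 in the control pool, a log2 ratio of 0.22. *Oasl2* was, with *Ifit2*, the only gene of the 9 beyond 1 scan error. *Ifi44*, a widely used marker of the interferon response, had 136 ± 13.8 in the *H-Bmal1*-/- pool and 107 ± 10.9 in the control pool, a log2 ratio of 0.20. *Rsad2* encodes viperin, an enzyme that makes a chain-terminating nucleotide, and had 734 ± 73.5 in the *H-Bmal1*-/- pool and 641 ± 64.1 in the control pool. Its log2 ratio was 0.05, so that its pools differed by less than the scan error.

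**Figure D2:**
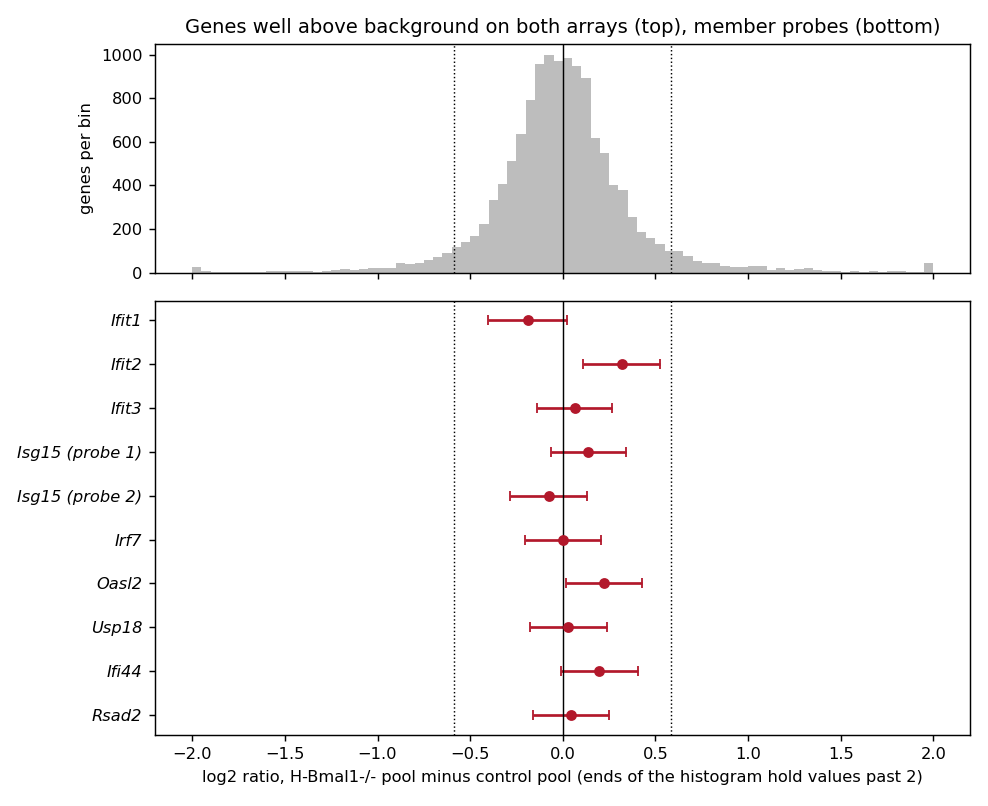
Distribution of log2 ratios, *H-Bmal1*-/- minus control, over the genes well above background on both arrays (top) and the log2 ratio of each of the 10 probes (bottom), with bars of 1 scan error and dotted lines at 1.5-fold. All probes lie between the dotted lines, from -0.19 for *Ifit1* to 0.32 for *Ifit2*.

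In descending order of log2 ratio the genes were *Ifit2*, *Oasl2*, *Ifi44*, *Ifit3*, *Rsad2*, *Isg15*, *Usp18*, *Irf7* and *Ifit1*. Of the 8 gaps between neighbors in that order, the largest was 0.19, between *Irf7* and *Ifit1*, and the next 0.13, between *Ifi44* and *Ifit3*. Only these 2 exceeded the combined spot SD of 0.11. None exceeded 0.22, which is 2 such SDs, so no order of neighbors was resolved at that limit. Of the 10 probes, 8 were within 1 scan error of 0 and none was beyond 2. Measured against the median spot SD alone, 4 probes lay more than 2 SDs (0.15) from 0: *Ifit2*, *Oasl2*, *Ifi44* and *Ifit1*. The spot SD of these 4 probes themselves is not known, so this does not show that their ratios were resolved.

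All 9 genes lay between the 5th and 95th percentiles of the 13862 genes, which were -0.69 and 0.78, and 6 of them lay between the quartiles of -0.20 and 0.18. The median size of the log2 ratio, regardless of sign, was 0.06 for the 9 genes, against 0.19 for all genes. The sets compared here are not alike, since all 9 genes were well above background on both arrays. Of the 13862 genes, 473 passed that filter on the *H-Bmal1*-/- array alone, and 326 passed it on the control array alone. Ratios of such genes rest on 1 dim signal. The percentiles, quartiles and median size are not given here for the 13063 genes that passed on both arrays. The 4 genes with an ISRE core in their window had log2 ratios of -0.19 (*Ifit1*), 0.06 (*Ifit3*), 0.03 (*Isg15*) and 0.05 (*Rsad2*). Those whose window lacked an exact match had 0.32 (*Ifit2*), 0.00 (*Irf7*), 0.22 (*Oasl2*) and 0.20 (*Ifi44*). A window without a match does not mean that the gene has no ISRE, since variants and bases outside the window were not searched. A relation between the element and the ratio was not tested.

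**Figure D3:**
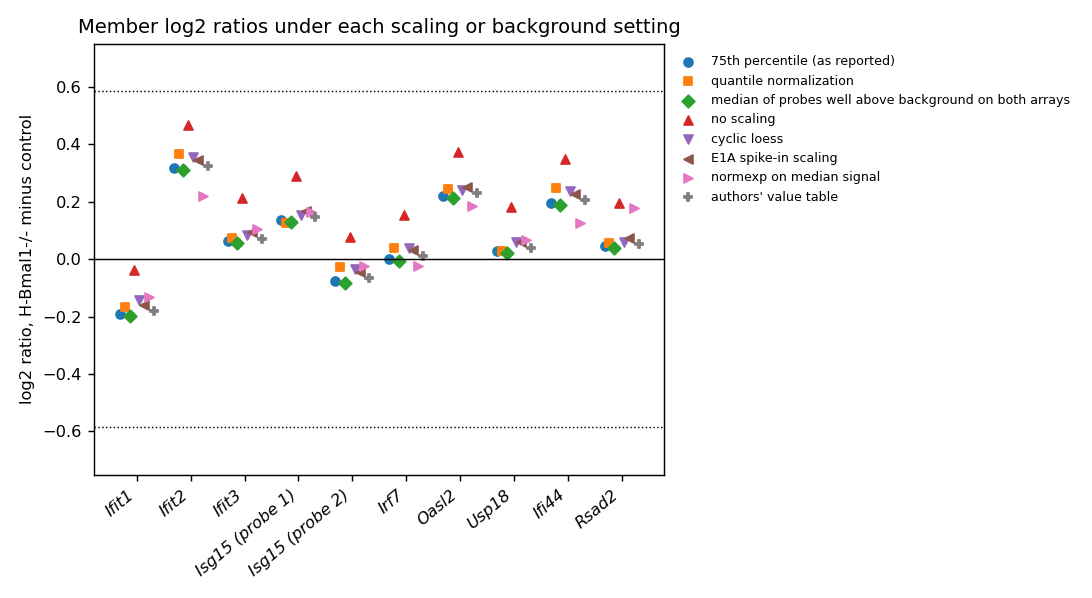
Log2 ratio of each of the 10 probes, *H-Bmal1*-/- minus control, as reported and under 7 other scalings, background corrections or sources of the values, with dotted lines at 1.5-fold. No probe reaches 1.5-fold under any of them, and the values without scaling between arrays are the highest for all 10.

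The rest of the pathway was described with 9 further lists of interferon genes. Of their 153 genes, 123 were measured, with 67 above 0, 56 below 0 and a median log2 ratio of 0.02. Among the 118 that were well above background on both arrays, 0 were at least 1.5-fold higher in the *H-Bmal1*-/- pool and 2 were at least 1.5-fold lower, *Il10rb* (in 8 of 11 alternatives) and *Gbp6* (in 9 of 11). *Tgtp2* passed 1.5-fold in 5 of 11 alternatives, and *Cgas*, *Zbp1*, *Irf4* and *Iigp1* in 1 each. The shares of all such genes were 5.13% higher and 4.51% lower. Counting also the genes well above background on 1 array only, 1 of the 123 was at least 1.5-fold higher (*Ifna5*) and 4 were lower (*Ifna14* and *Tlr3* in addition), against 7.33% higher and 6.31% lower among all 13862 genes.

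Interferon ligands were at the edge of detection. Of 21 listed, 5 were measured and 11 others, *Ifnb1* and *Ifng* among them, were not well above background on either array. *Ifna5* was well above background in the *H-Bmal1*-/- pool only, at 38.2 against 7.37 in the control pool. The ratio of these signals was 4.66-fold higher after scaling, with a log2 ratio of 0.20 under another background correction (normexp). *Ifna14* was well above background in the control pool only, at 7.86 in the *H-Bmal1*-/- pool against 15.3 in the control pool. Its ratio was 2.16-fold lower, with a log2 ratio of -0.24 after normexp. Each of these folds rests on a dim signal in 1 pool and is not a minimum. The genes of the *Ifna* cluster are near-identical, so these single probes are uncertain.

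All 13 genes of the receptors and of JAK-STAT-IRF9 signaling were measured, with a median log2 ratio of -0.02. *Ifnar1* and *Ifnar2*, the subunits of the type I receptor, had -0.05 and -0.09. *Stat2* had 0.21 and *Irf9*, its partner, -0.02, neither past 1.5-fold. *Il10rb*, a subunit shared by the receptors for interleukin 10 and for type III interferons, was 1.52-fold lower in the *H-Bmal1*-/- pool (log2 ratio of -0.61, and -0.46 without scaling). *Ifngr2*, a subunit of the type II receptor, had -0.25, and *Ifnlr1*, the other subunit of the type III receptor, 0.22.

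Sensors of nucleic acids, which start interferon production, had a median log2 ratio of 0.02 over 15 measured genes. Highest were *Cgas* (0.45, its 2 probes at 0.24 and 0.66), which senses DNA, *Dhx58* (0.41) and *Zbp1* (0.41, its 2 probes at 0.15 and 0.66). After normexp these were 0.09 for *Cgas*, 0.18 for *Dhx58* and 0.18 for *Zbp1*. Lowest was *Tlr3*, a sensor of double-stranded RNA, which was well above background only in the control pool. Its signals were 8.85 in the *H-Bmal1*-/- pool and 17.4 in the control pool. The ratio was 2.19-fold lower, which is not a minimum since 1 signal was dim (a log2 ratio of -0.32 after normexp). Next were *Ddx58*, which encodes RIG-I, at -0.24 (its 2 probes at -0.48 and 0.00) and *Mavs*, the adaptor of RIG-I, at -0.16. The 7 interferon regulatory factors beside *Irf7* had a median of -0.14 (-0.01 after normexp and 0.01 without scaling), and none was past 1.5-fold. *Irf4* was highest at 0.45 (0.10 after normexp, and 0.60 and past 1.5-fold without scaling), and *Irf2* was lowest at -0.26.

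The list closest in function to the 9 genes was that of other antiviral interferon-stimulated genes. Of 51 listed, 43 were measured, 29 were above 0 and 14 below, and none was past 1.5-fold in either direction. Their median log2 ratio was 0.07, and the range was -0.34 to 0.40. *Ifi27l2a*, *Xaf1* and *Slfn8* were highest, each at 0.40, although the 2 probes of *Xaf1* gave 0.01 and 0.79. *Slfn8* ranged from -0.14 to 0.55 over 11 alternatives and was above 0 in 10 of them. *Oas1c* (-0.34), *Ifitm1* (-0.31) and *Samhd1* (-0.30) were lowest. IFITM proteins hinder viral entry and SAMHD1 degrades deoxynucleotides.

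Enzymes that attach ISG15 to proteins had a median log2 ratio of 0.06 over 4 measured genes (0.19 with the brightest probe, 0.22 without scaling). *Uba7*, the activating enzyme, had a log2 ratio of 0.03, *Ube2l6*, the conjugating enzyme, 0.25, and *Herc6*, the mouse ligase, -0.09 with its probes at -0.44 and 0.25. Interferon-inducible GTPases, which attack the vacuoles of intracellular pathogens, had a median of 0.04 over 16 measured genes. *Gbp6* was 1.63-fold lower in the *H-Bmal1*-/- pool (log2 ratio of -0.71, and -0.56 without scaling), and *Iigp1* had -0.53. *Tgtp2* was highest at 0.58, just below 1.5-fold, but its 2 probes gave 0.11 and 1.06, and *Tgtp1* is a near-identical copy. *Tgtp2* was at 0.13 after normexp. When a probe had to exceed background well on each array, the highest ratio of the GTPases was 0.16.

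Genes of antigen processing and interferon-responsive chemokines had a median log2 ratio of -0.03 over 12 measured genes. *B2m*, the light chain of MHC class I, had 0.23, and *Psme1*, a subunit of a proteasome activator, -0.32. The subunits of the peptide transporter, *Tap1* and *Tap2*, had 0.22 and -0.25, and the chemokines *Cxcl10* and *Cxcl9* had 0.15 and -0.38. Inhibitors of interferon signaling had a median of -0.04 over 8 measured genes, from *Pias1* at -0.26 to *Socs3* at 0.33. In neither list was a gene past 1.5-fold.

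**Figure D4:**
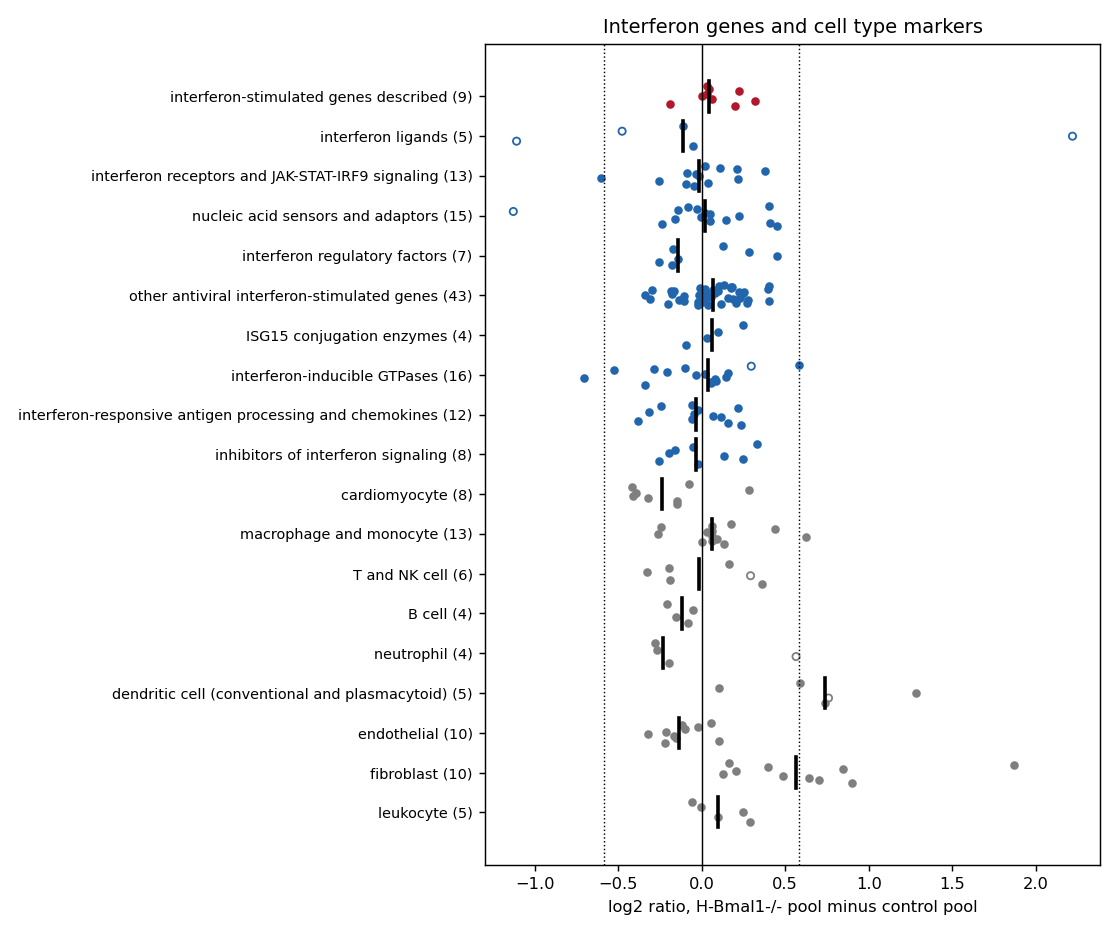
Log2 ratio, *H-Bmal1*-/- minus control, of each measured gene in the lists of interferon genes (red, the 9 genes; blue, the others) and of cell type markers (gray), with the number measured, bars at list medians and dotted lines at 1.5-fold. Open circles are genes well above background on 1 array only. The interferon lists center near 0, and the fibroblast and dendritic cell markers lie to the right.

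Cell type markers were set beside these values, because in pooled whole tissue fewer cells of a type and less RNA per cell cannot be told apart. Cardiomyocyte markers were measured for 8 of 8 genes, with a median log2 ratio of -0.24 and 7 below 0 (4 below 0 and a median of -0.09 without scaling, 4 and -0.12 with quantile normalization), from *Tnni3* at -0.42 to *Tnnc1* at 0.29. Their summed signal, in multiples of the 75th percentile, was 5008 in the *H-Bmal1*-/- pool and 5585 in the control pool. Fibroblast markers were above 0 for 10 of 10 genes, 5 of them at least 1.5-fold higher, from *Ddr2* at 0.13 to *Postn* at 1.87. Their summed signal was 449 in the *H-Bmal1*-/- pool and 301 in the control pool.

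Leukocyte markers differed between lists. The list of general leukocyte markers, measured for 5 of 5 genes, ran from *Ptprc* at -0.06 to *Cd52* at 0.29, with a summed signal of 14.3 in the *H-Bmal1*-/- pool and 12.5 in the control pool. Macrophage and monocyte markers were above 0 for 11 of 13 measured genes with a median of 0.06. They ran from *Cd163* at -0.26 to *Ccr2*, the receptor of recruited monocytes, at 0.63. *Ccr2* was past 1.5-fold in 10 of 11 alternatives, but was at 0.16 after normexp. Their summed signal was 58.3 in the *H-Bmal1*-/- pool and 55.9 in the control pool. Dendritic cell markers were above 0 for 5 of 5 measured genes, of 8 listed, with a median of 0.74 and 4 at least 1.5-fold higher. They ran from *Siglech* at 0.10, its 2 probes at -0.14 and 0.34, to *Itgax* at 1.28. After normexp 3 were above 0 and 2 below, with a median of 0.24, *Itgax* at 0.41 and none past 1.5-fold. Their summed signal was 4.46 in the *H-Bmal1*-/- pool and 3.86 in the control pool, of which *Siglech* alone made up 3.69 in the *H-Bmal1*-/- pool and 3.44 in the control pool, and *Ccr9*, *Xcr1* and *Clec9a* were not well above background on either array.

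The other marker lists had medians at or below 0 as reported. Without scaling the medians were 0.14 for T and NK cell, 0.03 for B cell, -0.08 for neutrophil and 0.01 for endothelial markers. The T and NK cell median was also -0.19 with the brightest probe and -0.10 after normexp. T and NK cell markers had -0.01 over 6 of 10 genes, from *Cd4* at -0.33 to *Cd3d* at 0.36, with a summed signal of 4.86 in the *H-Bmal1*-/- pool and 5.62 in the control pool. B cell markers had -0.12 over 4 of 5 genes, from *Ms4a1* at -0.21 to *Cd79b* at -0.05, and neutrophil markers had -0.23 over 4 of 6 genes. Lowest of these was *S100a9* at -0.28 and highest *Retnlg*, which was well above background in the *H-Bmal1*-/- pool only. *Retnlg* was 1.48-fold higher there, which is not a minimum since the control signal was dim (a log2 ratio of -0.03 after normexp). Endothelial markers had -0.14 over 10 of 10 genes, from *Fabp4* at -0.32 to *Emcn* at 0.10. The part of any of these cell types in the values of the interferon-stimulated genes was not tested.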

How the data were processed

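Left ventricular RNA, pooled from 6 animals per genotype, was labeled with Cy3 and hybridized to Agilent SurePrint G3 Mouse 8x60K arrays, both on 1 slide and in 1 scan. The deposited intensity is the processed signal of Feature Extraction, background-subtracted and not scaled between arrays (version 10.5.1.1 in the submitters' processing notes, 10.10.1.1 in the file headers). The authors' deposited value table held this intensity times 1 factor per array, and the rule behind the factor was not given in the sources used here.

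Signals were scaled to the 75th percentile of noncontrol spots and taken to log2. The 269 spots marked as outliers were left out, and spots of a probe were averaged. Accessions were matched to RefSeq symbols for 26759 of 55676 probes. For each gene, probes that exceeded background well on 1 or both arrays were averaged. For a gene not well above background on 1 array, its dim signal was raised to the lowest signal well above background where that was higher. Where its own signal was higher, the plain ratio was used, which is not a minimum. With 1 array per genotype no test was made, and genes were counted at 1.5-fold. The number of arrays limits the precision. All 9 genes were named, with up to 3 highest and 3 lowest genes of each interferon list, every gene past 1.5-fold and the highest and lowest of each marker list. *Ifnar1*, *Irf9*, *Ifit3b*, *Ifnb1*, *Ifng*, *Ccr9*, *Xcr1* and *Clec9a* were named for their roles in addition, and some genes that this rule takes in are not reported here. The members and lists were chosen with earlier results of these data known. The calculation was tested on simulated data with planted changes larger than any ratio of the 9 genes. That check does not bear on ratios as small as theirs. Python 3.11.15, pandas 2.3.3, numpy 2.4.6, R 4.3.3 and limma 3.58.1 were used.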

Additional observations from a re-analysis of the deposited data

How the results depend on the processing

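The 9 genes were recomputed under 11 other ways of processing: other scalings between arrays, normexp background correction, the authors' value table, other filters on dim or marked spots, and the brightest probe of a gene. None of the 9 was 1.5-fold higher or lower under any of them. The lower limit of 0.322 was passed by *Ifit2* in 5 of the 11, and by *Oasl2* and *Ifi44* without scaling, at 0.37 and 0.35. Their median log2 ratio was 0.05 as reported, 0.20 without scaling and 0.04 to 0.10 under the other 10, and that of the other antiviral genes was 0.07 as reported, 0.22 without scaling and 0.04 to 0.10 otherwise. Without scaling the median of all genes was 0.14, so that the 9 genes exceeded it by 0.06 as before. The sign turned for 2 probes near 0: the second *Isg15* probe was above 0 in 1 of 11 alternatives, at 0.08, and *Irf7* in 9 of 11, from -0.02 to 0.15. At 1.5-fold, 1016 of all genes were higher and 875 lower as reported, 1490 and 617 without scaling, 373 and 248 with normexp, and 622 and 558 when a probe had to exceed background well on each array. No paired analysis was possible because each genotype had 1 array. Differences within the scan error of about 0.20 were not resolved by that estimate, although *Ifi44* and *Ifit1* lay more than 2 median spot SDs from 0. The spread between animals could not be had from pooled RNA.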
